A study of Mus musculus with 28 samples.

Results

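The TCA cycle enzymes are described here by 9 genes that encode mitochondrial enzymes or subunits of the cycle, namely Cs, Idh2, Idh3a, Idh3b, Idh3g, Ogdh, Sucla2, Fh1 and Mdh2. They were chosen by symbol from a list of enzymes, matched to their Ensembl identifiers, and make up 9 of the 53342 gene identifiers in the count tables. All 9 passed the filter on low counts in every comparison. RNA of the mouse cerebral cortex was sequenced in 28 libraries, each from 1 mouse. Whole cortex (bulk RNA-Seq) was sampled at postnatal day 24 (P24) and at P17, each with 4 cKO and 4 Ctrl mice. Translating ribosome affinity purification (TRAP-Seq) was performed at P24 in 3 mice of each genotype, and both the Input and the immunoprecipitate (IP) of every mouse were sequenced. The cKO mice carried mGFAP-Cre and loxP/loxP alleles, and the bulk Ctrl mice were sex-matched littermates with loxP/loxP or loxP/+ alleles, listed without the driver. The labels give the TRAP-Seq Ctrl mice as Ctrl alone, and the study describes its Ctrl mice as f/f or f/+. Since tagged ribosomes need the driver, these mice are taken to carry it too, and the loxP alleles of each are not given in the sources used here, so a Ctrl mouse with a recombined allele cannot be told apart. The colony was backcrossed to C57BL/6J. For TRAP-Seq, mGFAP-Cre also switched on EGFP-tagged Rpl10a, a ribosomal protein, so the ribosomes pulled down with GFP antibodies come from cells in which the murine GFAP promoter drove Cre, which are mainly astrocytes. Animals were not pooled.

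The TCA cycle is the mitochondrial pathway that oxidises acetyl groups to carbon dioxide and hands the electrons to the respiratory chain. In the brain, neurons and astrocytes both run it, and astrocytes also draw on it to make and dispose of glutamate and glutamine. Many steps have more than a single form of enzyme, and isoforms can differ between cell types: isocitrate is oxidised by an NAD-dependent enzyme of 3 kinds of subunit (Idh3a, Idh3b, Idh3g) or by an NADP-dependent one (Idh2), and succinyl-CoA synthetase pairs the shared subunit Suclg1 with an ADP-specific (Sucla2) or a GDP-specific (Suclg2) partner.

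Among the 9 genes, Idh2 and Ogdh were at opposite ends of the comparison of astrocyte-targeted IP with Input. Idh2 was also the member with a called difference between cKO and Ctrl mice in the main fits, in whole cortex at P24. Cs was the other member with more transcript in IP in both genotypes. Promoter sequences (RefSeq, GRCm38.p6) were at hand for 8 of the 9 members, all but Idh3a. The stretches shown belong to the 3 members that differed between fractions in both genotypes, end before the first base annotated as exonic, and run 5′ to 3′ on the gene's strand. The windows were searched on both strands for 6 motifs: the GC box (GGGCGG), the cAMP response element (TGACGTCA), an NRF1 site (GCGCATGCG), a GABP site (CCGGAAGT), an ERR site (TCAAGGTCA) and a TATA box (TATAAA). Capitals mark matches, and for Ogdh, which has 6 annotated starts, the stretch shown is the 1 adjoining the GENCODE start.
Idh2, chr7:80115393-80115542, minus strand: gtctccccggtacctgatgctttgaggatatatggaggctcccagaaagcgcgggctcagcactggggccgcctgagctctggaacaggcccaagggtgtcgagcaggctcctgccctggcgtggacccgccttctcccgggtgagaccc
Cs, chr10:128337577-128337726, plus strand: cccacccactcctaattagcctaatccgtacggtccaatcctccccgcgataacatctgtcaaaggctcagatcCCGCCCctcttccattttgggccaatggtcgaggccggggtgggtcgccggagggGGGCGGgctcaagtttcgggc
Ogdh, chr11:6291483-6291632, plus strand: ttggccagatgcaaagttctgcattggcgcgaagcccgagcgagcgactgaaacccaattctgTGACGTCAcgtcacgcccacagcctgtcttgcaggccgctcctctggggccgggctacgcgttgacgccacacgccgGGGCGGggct

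The Cs stretch held 2 GC boxes, the Ogdh stretch held a cAMP response element and a GC box, and the Idh2 stretch held neither motif, though the 250 bases before the Idh2 start, which extend past the stretch, held 2 GC boxes. Of 32851 promoter windows in the reference, each of the 250 bases before a start, 32.7% held a GC box, 1.55% a cAMP response element, 1.45% the NRF1 site, 2.88% the GABP site, 0.387% the ERR site and 12.4% the TATA box. The windows of 2 later Ogdh starts held the NRF1 site, and no window of the members held the other 3 motifs. These matches describe letters in the windows and were not tested against expression.

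Levels were taken as CPM, counts scaled to library size and TMM factors (normalised CPM), within each count table. The 16 bulk libraries held between 8855488 and 14575302 counts and the 12 TRAP-Seq libraries between 18433087 and 27242445, so that 3 counts, the smallest level taken as detectable, corresponded to at most 0.339 CPM, far under every member; these limits cover counting error only. The fractions were checked with marker genes. All 9 astrocyte markers examined, among them Aldh1l1, Aqp4 and Gja1, were higher in IP than in Input in both genotypes, and no library had any of them at 0. Their summed level lay between 12180 and 16739 CPM in the 6 IP libraries and between 1134 and 2377 CPM in the 6 Input libraries. Of 9 neuron markers, 8 were lower in IP in both genotypes, with summed levels of 2404 to 2870 CPM in IP and 5659 to 6483 CPM in Input. Input cKO replicate 1 stood apart from the other Input libraries, with a TMM factor of 0.884 against 0.976 to 1.04. Several tests of members that rest on it, though not all, are given with and without it.

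To compare levels between genes, normalised CPM was divided by the union of annotated exons in kilobases. In whole cortex of Ctrl mice at P24, Ogdh (47.3 ± 2.67 CPM per kb, SD, n = 4) and Mdh2 (45.3 ± 2.31) had the highest levels and overlapped between mice. Idh3b followed at 40.7 ± 1.99, Idh3g at 37.2 ± 2.08, Cs at 32.7 ± 0.32 and Idh3a at 21.8 ± 0.92. Sucla2 and Fh1 lay at 14.9 ± 1.03 and 12.8 ± 0.54, and Idh2 was lowest at 9.24 ± 0.15, below every Fh1 value. The ranges of Mdh2 and Idh3b, of Idh3b and Idh3g, and of Sucla2 and Fh1 overlapped, so these neighbours were not separated. The order was different in IP from Ctrl mice. There, Mdh2 (77.7 ± 5.37 CPM per kb, n = 3), Cs (75.0 ± 3.51) and Idh2 (71.7 ± 8.56) were highest with overlapping ranges, and Ogdh was lowest at 18.1 ± 1.08. Idh2 thus stood at rank 9 in whole cortex and rank 3 in IP, and Ogdh at rank 1 and rank 9. Whole cortex and IP are separate preparations from different mice, so preparation and fraction cannot be told apart in these shifts. In Ctrl Input, from the IP mice, Idh2 was also at rank 9 (8.42 ± 0.61 CPM per kb) and Ogdh at rank 3 (53.9 ± 6.30). Mdh2 (96.5 ± 3.58) and Idh3b (62.9 ± 1.48) were above Ogdh there. With the longest annotated transcript in place of the exon union, Idh2 kept rank 9 in whole cortex and rank 3 in IP. The order of other members in the cortex depended on the length used. Mdh2 (100 CPM per kb) was then highest, followed by Idh3b (68.0), Cs (62.9, rank 3) and Ogdh (62.5, rank 4), with Idh3g at 48.3. The longest annotated transcripts of Cs and Mdh2 have 1 exon.

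Which enzymes of the cycle were associated with astrocyte ribosomes was asked by comparing IP with Input from the same mice, without pairing in the main fit. In Ctrl mice, Idh2 and Cs were higher in IP, Ogdh was far lower, Mdh2 and Idh3b were slightly lower, and Idh3a, Idh3g, Sucla2 and Fh1 were not called. This made 5 of 9 members called, while 71.0% of all 24385 genes tested were called (35.3% higher and 35.7% lower in IP), so their number is no result about the members. The median log2 fold change of the members was −0.04, beside −0.03 over all genes tested.

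Idh2 (ENSMUSG00000030541, chr7:80094846-80115392, GRCm38, minus strand) encodes the mitochondrial NADP-dependent isocitrate dehydrogenase, which makes NADPH inside the organelle. In Ctrl Input it was at 23.0, 22.4 and 20.0 CPM, and in Ctrl IP at 194, 160 and 202 CPM. The libraries of the 2 fractions were far apart, and the log2 fold change was 3.08 ± 0.12 (SE, n = 3; edgeR quasi-likelihood test, Benjamini–Hochberg adjusted p = 2.53e-09), or 8.44-fold. In cKO mice Idh2 was at 30.6, 35.1 and 29.3 CPM in Input and 167, 171 and 179 CPM in IP, a 5.39-fold difference.

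Cs (ENSMUSG00000005683, chr10:128337734-128362479, plus strand) encodes citrate synthase, which condenses acetyl-CoA with oxaloacetate at the entry of the cycle. It was at 259, 274 and 234 CPM in Ctrl Input and 435, 413 and 453 CPM in Ctrl IP, which is 1.68-fold higher (log2 fold change 0.75 ± 0.10, adjusted p = 3.16e-05). In cKO mice the difference was 1.84-fold, and the fractions did not overlap in either genotype. The annotation also holds Csl, a single-exon copy of Cs, to which reads of Cs could have been assigned; it had between 83 and 316 counts per TRAP-Seq library.

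Ogdh (ENSMUSG00000020456, chr11:6291633-6356642, plus strand) encodes the decarboxylating component of the 2-oxoglutarate dehydrogenase complex, which turns 2-oxoglutarate into succinyl-CoA. Its levels were 293, 329 and 261 CPM in Ctrl Input and 102, 91.8 and 102 CPM in Ctrl IP. Every IP library was below every Input library, with a log2 fold change of −1.59 ± 0.11 (adjusted p = 1.68e-07), which is 3.01-fold lower. In cKO mice Ogdh was at 184, 285 and 270 CPM in Input and 98.5, 105 and 125 CPM in IP, 2.27-fold lower, and without the mouse of Input cKO replicate 1 the log2 fold change was −1.27.

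Mdh2 (ENSMUSG00000019179, chr5:135778480-135790398, plus strand), the mitochondrial malate dehydrogenase that regenerates oxaloacetate, was 1.25-fold lower in IP of Ctrl mice (log2 fold change −0.32 ± 0.09, adjusted p = 0.0080). Idh3b (ENSMUSG00000027406, chr2:130279309-130284547, minus strand), a regulatory subunit of the NAD-dependent isocitrate dehydrogenase, was 1.17-fold lower (−0.23 ± 0.09, adjusted p = 0.0325); 5 of its exonic bases overlap Nop56 on the opposite strand. Without Ctrl replicate 1, neither passed the threshold (Mdh2 −0.35 ± 0.15, adjusted p = 0.0578; Idh3b −0.22 ± 0.15, adjusted p = 0.225), and the same held without Ctrl replicate 2 (−0.23 ± 0.13, 0.135; −0.20 ± 0.13, 0.183). The log2 fold changes kept their sign, and the standard errors were larger in both of these fits. Without Ctrl replicate 3 both members kept their calls in the same test. Mdh2 was then at −0.32 ± 0.09 (adjusted p = 0.0118) and Idh3b at −0.20 ± 0.08 (adjusted p = 0.0472). Idh3b also lost its call with library size alone (−0.15, adjusted p = 0.155) and with no filter (−0.16, adjusted p = 0.273). Neither was called in cKO mice.

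The other members did not pass the test between fractions of Ctrl mice. Idh3a (ENSMUSG00000032279, chr9:54586334-54604661, plus strand), the catalytic subunit, had a log2 fold change of −0.13 (95% interval −0.35 to 0.09), and Idh3g (ENSMUSG00000002010, chrX:73778963-73786897, minus strand), a regulatory subunit, one of 0.13 (−0.07 to 0.34), with IP at 125 to 138 CPM and Input at 111 to 123 CPM, without overlap. Sucla2 (ENSMUSG00000022110, chr14:73525319-73596142, plus strand), the ADP-specific subunit of succinyl-CoA synthetase, had 0.07 (−0.17 to 0.31). Fh1 (ENSMUSG00000026526, chr1:175600374-175625635, minus strand), the fumarase that hydrates fumarate to malate, had −0.04 (−0.25 to 0.18). Without Ctrl replicate 3, Sucla2 was called at 0.27 with an adjusted p of 0.0122. The 4 intervals together span ratios of IP to Input from 0.787 to 1.26.

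In cKO mice 3 of 9 members were called, Idh2 and Cs higher and Ogdh lower in IP, beside 56.3% of 24011 genes tested (27.8% higher, 28.5% lower). Without the mouse of Input cKO replicate 1, Idh3g was called as well, at 0.31 with an adjusted p of 0.0363. The 2 genotypes' comparisons have no library in common, but Ctrl and cKO libraries enter again in the genotype comparisons.

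**Figure D1:**
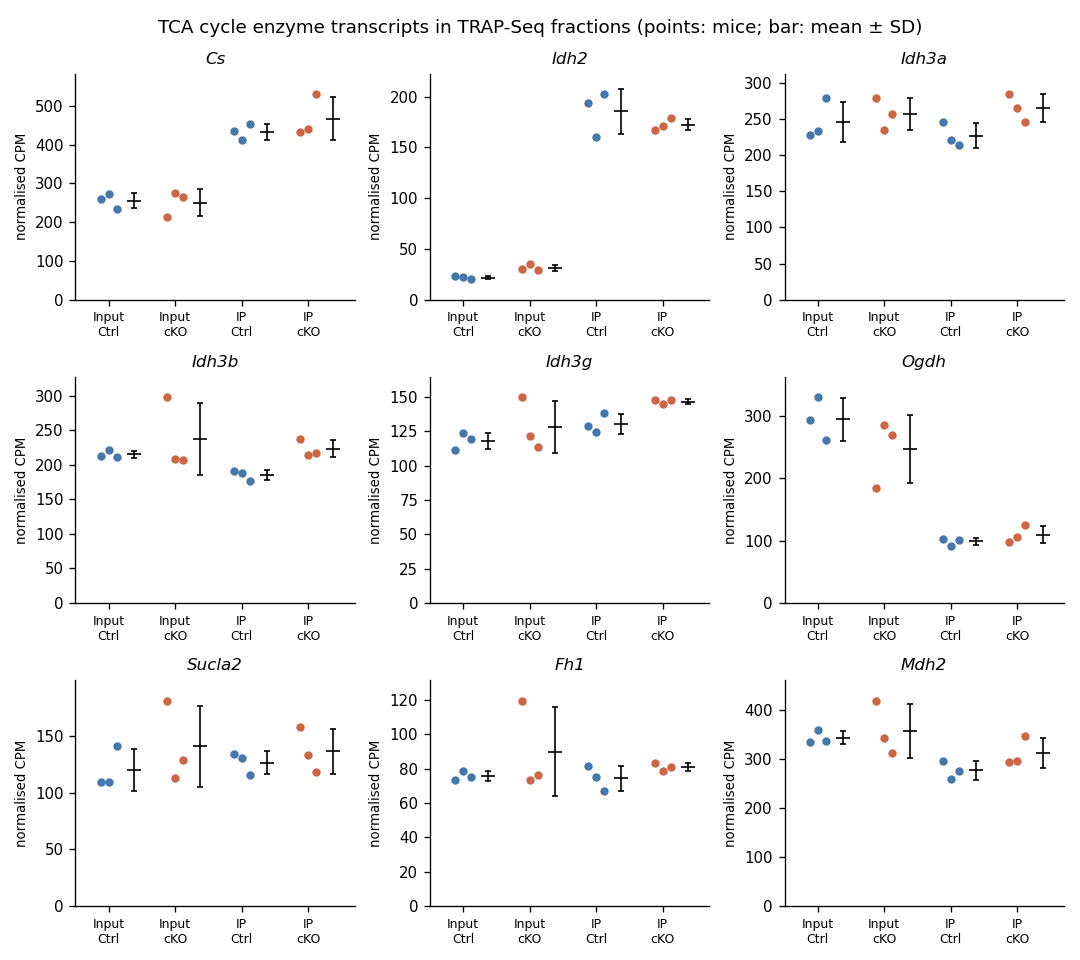
Normalised CPM (vertical axes, from 0) of the 9 members in Input and IP libraries of 3 Ctrl (blue) and 3 cKO (orange) mice; points are mice and the black bars mean ± SD. Idh2 lies between 160 and 202 CPM in Ctrl IP against at most 23.0 in Ctrl Input, Ogdh shows the opposite order, and Input cKO replicate 1, the first orange point, is high for Fh1, Sucla2 and Idh3b and low for Ogdh.

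The other subunits of the cycle were examined as a list of 8 genes, and 7 were called in Ctrl mice, 6 higher and 1 lower in IP, beside the 71.0% of all genes called, with a median log2 fold change of 0.87 beside −0.03 over all genes. The largest difference was that of Suclg2, the GDP-specific subunit of succinyl-CoA synthetase, at 5.40, 4.29 and 5.96 CPM in Input and 74.7, 76.6 and 81.0 CPM in IP (log2 fold change 3.88 ± 0.13, 14.7-fold). Its ADP-specific counterpart Sucla2 did not pass the test, and the shared subunit Suclg1 was 2.44-fold higher in IP. Within the 2-oxoglutarate dehydrogenase complex, Ogdh and Dlst (the succinyl-transferring core, −0.65) were lower, and Dld (the lipoamide dehydrogenase, which other complexes also use, 0.75) was higher. Of the succinate dehydrogenase subunits, Sdhb (0.62), Sdhc (1.03) and Sdhd (0.99) were higher, while Sdha, the flavoprotein subunit, did not pass the test. In cKO mice 7 of the 8 were called, 6 higher and 1 lower.

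**Figure D2:**
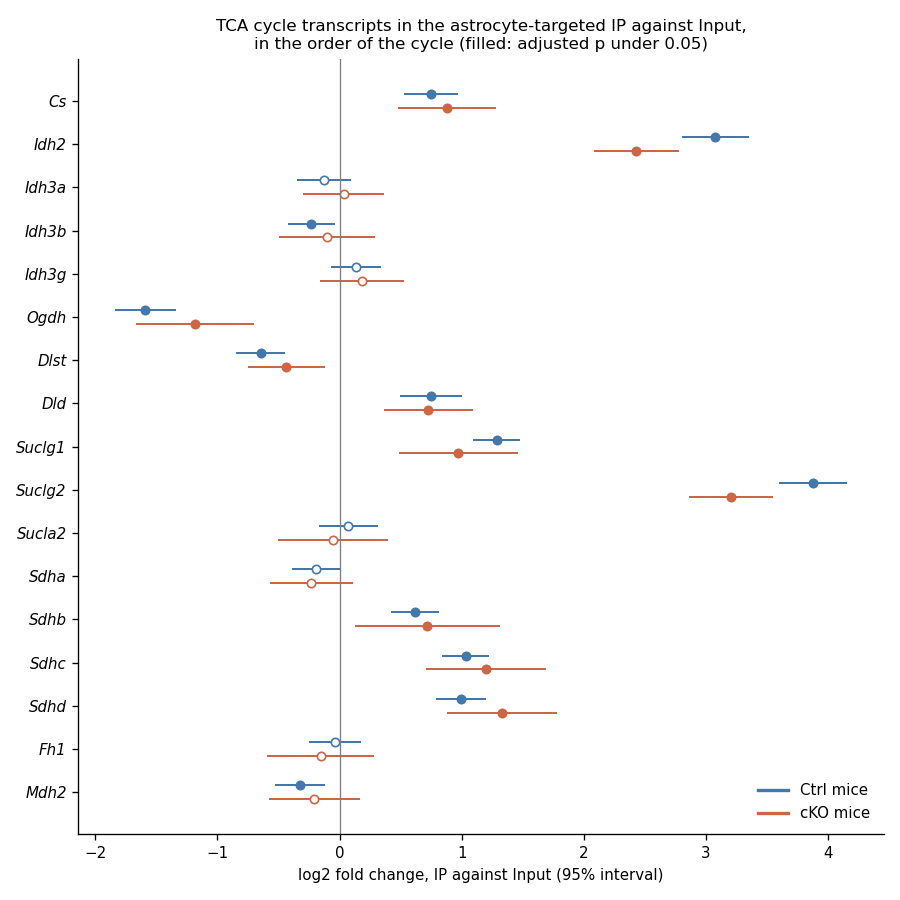
Log2 fold change of IP against Input (horizontal axis) with 95% intervals for 17 TCA cycle genes in the order of the cycle (vertical axis), in Ctrl (blue) and cKO (orange) mice; filled points have an adjusted p under 0.05. Suclg2 (3.88 in Ctrl mice) and Idh2 (3.08) stand apart to the right and Ogdh (−1.59) to the left, in both genotypes.

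Cytosolic counterparts and paralogs were a list of 6, of which 5 were called in Ctrl mice, 3 higher and 2 lower. Idh1, the cytosolic and peroxisomal NADP-dependent isocitrate dehydrogenase, was 5.32-fold higher in IP, Me1 (cytosolic malic enzyme) 2.26-fold and Aco1 (cytosolic aconitase) 2.04-fold. Mdh1 (cytosolic malate dehydrogenase) was 1.29-fold and Acly (ATP citrate lyase) 1.57-fold lower. In Ctrl mice both NADP-dependent enzymes were thus called higher in IP, and none of the 3 NAD-dependent subunits was called higher; the difference between them was not tested. Of 20 genes for entry into and exit from the cycle, 17 were called, 8 higher and 9 lower. They ranged from Slc25a12, the aspartate–glutamate carrier 1 (2.56-fold lower), to Pdk4, a kinase that inhibits pyruvate dehydrogenase (15.8-fold higher), with Glud1, the glutamate dehydrogenase that feeds 2-oxoglutarate, at 5.64-fold higher and Me3, a mitochondrial malic enzyme, 2.36-fold lower. Of 8 genes taken for mitochondrial content, 6 were called, 3 higher and 3 lower, with a median of −0.005. The counts of these 3 lists stand beside the 71.0% of all genes called.

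Whether the cycle's transcripts differed between cKO and Ctrl mice was first asked in whole cortex. At P24, Idh2 rose in cKO cortex and no other member passed the test. Idh2 was at 23.4 to 24.3 CPM in the 4 Ctrl mice and at 34.7, 30.6, 32.5 and 30.8 CPM in the 4 cKO mice. The cKO mice were all above the Ctrl mice, and the difference was 1.34-fold (95% interval 1.24 to 1.46; log2 fold change 0.43 ± 0.06, SE, n = 4; edgeR quasi-likelihood test, adjusted p = 0.00182). Idh2 was the single member called of 9, beside 1.72% of 22494 genes tested.

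Cs was at 191, 187, 189 and 189 CPM in Ctrl mice and 199, 213, 197 and 204 CPM in cKO mice. These groups also did not overlap, but the difference of 1.08-fold did not pass the test (log2 fold change 0.10 ± 0.04, adjusted p = 0.336). Without overlap, all cKO above all Ctrl, were thus 2 of 9 members, beside 4.25% of genes tested. The other 7 members had log2 fold changes between −0.03 (Ogdh) and 0.08 (Sucla2), with overlapping groups. The median of the 9 was 0.05, beside 0.0005 over all genes.

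Markers of astrocytes moved in the same libraries. Of the 9 astrocyte markers, 6 were called at P24, 4 higher (Gfap by 5.68-fold, Aqp4 by 2.37-fold, Aldh1l1 by 2.27-fold and Sox9 by 1.40-fold) and 2 lower (Slc1a2 and Slc1a3) in cKO mice, and their summed level was 5024 to 5186 CPM in cKO and 4593 to 5201 CPM in Ctrl mice. Their part in the Idh2 difference was not tested. In bulk tissue, more cells of a type cannot be told apart from more RNA per cell. No neuron, microglia, oligodendrocyte or endothelial marker examined was called at P24.

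At P17 the levels of Idh2 were 22.8, 27.3, 23.6 and 27.6 CPM in Ctrl mice and 31.6, 30.8, 39.2 and 37.4 CPM in cKO mice. The groups did not overlap, and the difference was 1.37-fold (95% interval 1.19 to 1.59; log2 fold change 0.46 ± 0.09) with an adjusted p of 0.193. No member was called by the edgeR quasi-likelihood test at P17, beside 0.0943% of 21201 genes tested; 3 members had an unadjusted p under 0.05 (Idh2, Idh3a and Cs), beside 4% of genes, and DESeq2 called 1, Idh2, with an adjusted p of 0.0323. Same-numbered P17 libraries deviated together, and in the fit blocked on replicate number the log2 fold change of Idh2 was 0.45 ± 0.08 with an adjusted p of 0.00616. Idh2 at P17 was therefore past the threshold or short of it depending on the fit, while its size stayed between 0.40 and 0.51 in the 14 alternatives.

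Idh3a was the other member whose P17 groups did not overlap, at 117, 122, 119 and 121 CPM in Ctrl and 125, 124, 136 and 143 CPM in cKO mice (log2 fold change 0.14 ± 0.06, adjusted p = 1). This made 2 of 9 members whose cKO mice were all above the Ctrl mice, beside 1.74% of genes tested. The log2 fold changes of all 9 members were above 0, from 0.03 (Sucla2) to 0.46, with a median of 0.08 beside −0.004 over all genes. At P17, 1 of 9 astrocyte markers was called, Gfap, which was 2.04-fold higher in cKO mice, with summed levels of 5453 to 6021 CPM in cKO and 5364 to 5664 CPM in Ctrl mice.

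The genotype effect on the members did not pass a test of difference between ages. None of the 9 was called for the age by genotype interaction, beside 0.0470% of 23395 genes tested (11 genes, but 149 without P24 cKO replicate 1), none had an unadjusted p under 0.05, beside 6.32% of genes, and DESeq2 also called none. For the astrocyte markers, 2 of 9 were called, Gfap and Aldh1l1. For Idh2 the difference between the effects, P24 minus P17, was −0.03 on the log2 scale (95% interval −0.28 to 0.21).

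**Figure D3:**
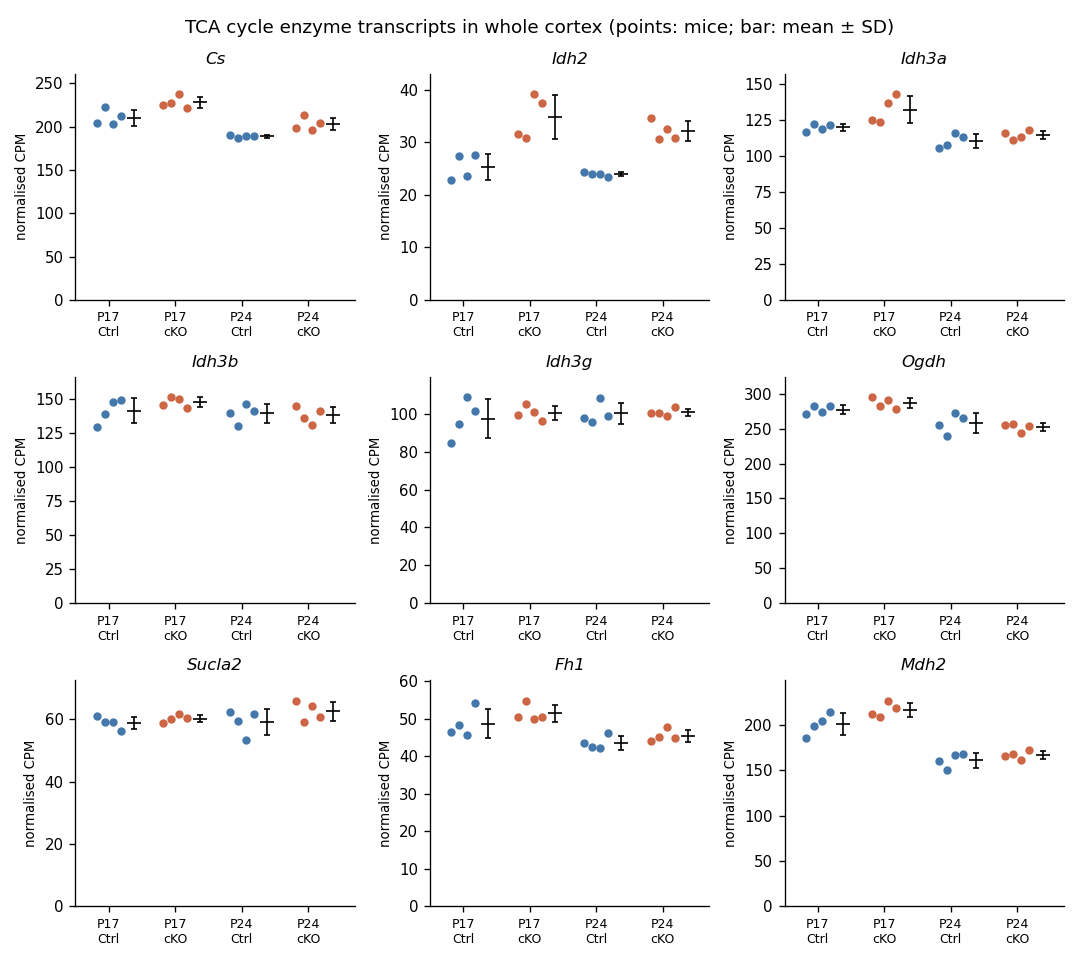
Normalised CPM (vertical axes, from 0) of the 9 members in whole cortex at P17 and P24, 4 Ctrl (blue) and 4 cKO (orange) mice per age; points are mice and the black bars mean ± SD. The cKO mice lie above the Ctrl mice for Idh2 at both ages (30.8 to 39.2 against 22.8 to 27.6 CPM at P17), and the other members differ by little.

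Of the 8 other TCA cycle subunits, none was called in whole cortex at either age by the edgeR quasi-likelihood test; 3 had an unadjusted p under 0.05 at P24 (Sdhb, Sdhc and Sdhd, with log2 fold changes of 0.17, 0.21 and 0.21), beside 13.2% of genes, and 1 at P17. Across all 4 lists, the call at P24 was that of Glud1, at 146, 144, 146 and 148 CPM in Ctrl and 176, 184, 186 and 175 CPM in cKO mice (1.23-fold, adjusted p = 0.00448). Glud1, like Idh2, was higher in IP than in Input. At P17 no gene of the lists was called.

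In the Input libraries of the TRAP-Seq mice, none of the 9 members was called by the edgeR quasi-likelihood test between cKO and Ctrl, beside 0.109% of 23828 genes tested; 1 had an unadjusted p under 0.05, beside 4.03% of genes, and DESeq2 called none. That member was Idh2, at 23.0, 22.4 and 20.0 CPM in Ctrl and 30.6, 35.1 and 29.3 CPM in cKO mice. The groups did not overlap, and the difference was 1.46-fold (log2 fold change 0.54 ± 0.15, adjusted p = 0.615). The exact permutation test gave p = 0.1 for Idh2, the smallest value possible with 3 mice in each group. Idh2 was the single member of 9 with every cKO library above every Ctrl library, beside 6.59% of genes tested. Without Input cKO replicate 1 the log2 fold change of Idh2 was 0.56 ± 0.12 (adjusted p = 0.135).

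That library decided the values of several other members. Fh1 was at 120, 73.2 and 76.7 CPM in the Input of cKO replicates 1 to 3, against 73.3 to 78.7 CPM in Ctrl mice, and Ogdh was at 184, 285 and 270 CPM against 261 to 329. With the library, Fh1, Sucla2 and Ogdh had log2 fold changes of 0.25, 0.24 and −0.26, and without it −0.01, 0.02 and −0.08. The summed level of the astrocyte markers was 1806 to 2377 CPM in Input of cKO mice and 1134 to 1364 CPM in Input of Ctrl mice, without overlap, and 1 of the 9 was called, higher in cKO mice. Their part in the Idh2 values was not tested.

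In astrocyte-targeted IP, the genotypes differed at many genes: 20.0% of 23864 genes tested were called. The 4782 genes called became 1684 in the fit over all TRAP-Seq libraries, and without single libraries between 2633 (without IP cKO replicate 2) and 4810. None of the 9 members was called by the edgeR quasi-likelihood test, 2 had an unadjusted p under 0.05 (Idh3b and Idh3a), beside 33.7% of genes, and DESeq2 called 1, Idh3b, with an adjusted p of 0.0216. Idh2 was at 194, 160 and 202 CPM in Ctrl IP and 167, 171 and 179 CPM in cKO IP. These ranges overlapped, with a log2 fold change of −0.10 (95% interval −0.33 to 0.14, adjusted p = 0.569).

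The members whose IP groups did not overlap were the 3 subunits of the NAD-dependent isocitrate dehydrogenase. Idh3b was at 191, 188 and 176 CPM in Ctrl and 238, 214 and 218 CPM in cKO mice (log2 fold change 0.28 ± 0.09, adjusted p = 0.0536). Idh3a was at 246, 221 and 214 CPM in Ctrl and 284, 264 and 246 CPM in cKO mice (0.23 ± 0.10, adjusted p = 0.122). Idh3g was at 129, 125 and 138 CPM in Ctrl and 148, 145 and 148 CPM in cKO mice (0.18 ± 0.09, adjusted p = 0.193). For each of them every cKO library was above every Ctrl library, though by a narrow margin for Idh3a, whose highest Ctrl and lowest cKO libraries were both at 246 CPM. These 3 of 9 members stand beside 19.0% of all genes tested without overlap in that direction. The log2 fold changes of the other 5, Cs, Ogdh, Sucla2, Fh1 and Mdh2, lay between 0.12 and 0.18 with overlapping groups. The median of the 9 was 0.16, beside −0.01 over all genes.

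**Figure D4:**
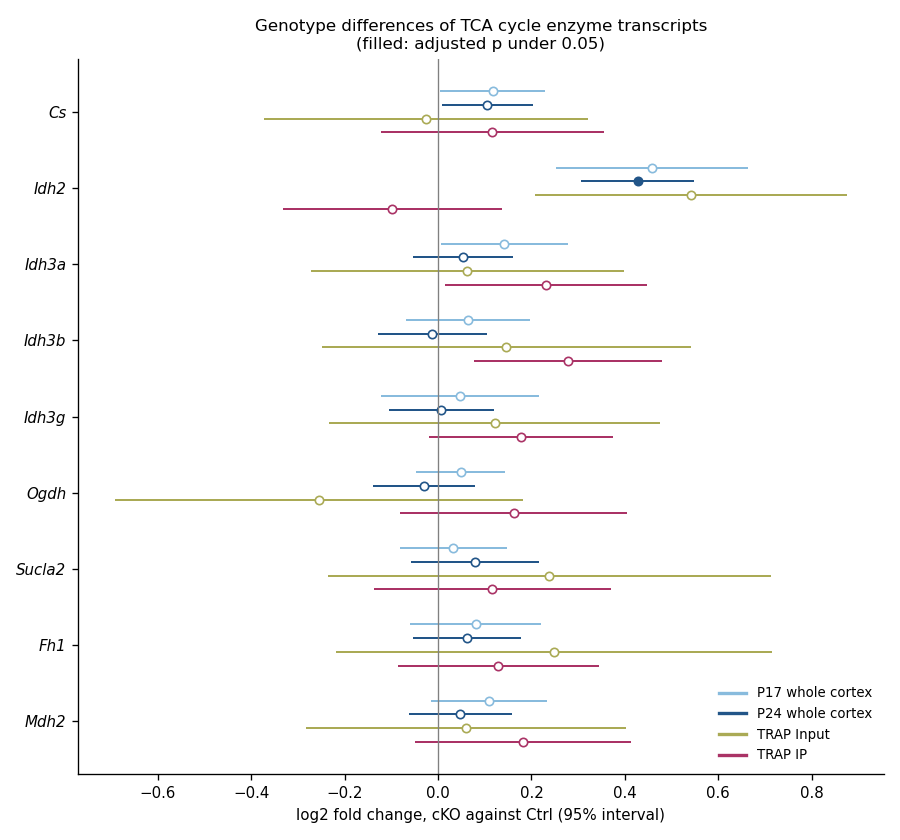
Log2 fold change of cKO against Ctrl (horizontal axis) with 95% intervals for the 9 members (vertical axis) in whole cortex at P17 and P24 (4 against 4 mice) and in TRAP Input and IP (3 against 3); filled points have an adjusted p under 0.05. Idh2 at P24 (0.43) is the filled point, Idh2 in IP (−0.10) lies left of 0, and the Input intervals are the widest.

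The effect of genotype on Idh2 was 0.54 in Input and −0.10 in IP on the log2 scale, and the difference itself, IP minus Input, was −0.64 ± 0.18 (95% interval −1.03 to −0.26) with an unadjusted p of 0.00297 and an adjusted p of 0.234. No member passed the threshold for this fraction by genotype interaction with the edgeR quasi-likelihood test, beside 0.0582% of 25768 genes tested (15 genes, but 340 without cKO replicate 1); 1, Idh2, had an unadjusted p under 0.05, beside 8.74% of genes, and DESeq2 called it with an adjusted p of 0.0492. Without the mouse of Input cKO replicate 1 the value was −0.65 (adjusted p = 0.076). All 9 astrocyte markers had negative values in the same comparison, with a median of −0.82 and 7 at an unadjusted p under 0.05, but none was called. Whether the Idh2 difference is separate from that of the markers was not tested.

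Around these 9 members, other genes of the cycle changed in IP of cKO mice. Of the 8 other subunits, 3 rose and none fell, beside the 20.0% called in either direction, with a median log2 fold change of 0.18. They were the iron–sulfur subunit and both membrane anchors of succinate dehydrogenase. Sdhb was at 242, 228 and 232 CPM in Ctrl and 342, 367 and 338 CPM in cKO mice (log2 fold change 0.58, adjusted p = 0.00159). Sdhc was at 244, 220 and 222 CPM in Ctrl and 341, 382 and 351 CPM in cKO mice (0.65, adjusted p = 0.00123). Sdhd was at 191, 180 and 161 CPM in Ctrl and 275, 281 and 236 CPM in cKO mice (0.58, adjusted p = 0.00372). The groups did not overlap for any of these. Sdha, the catalytic flavoprotein of the same complex, stood at −0.07 on the log2 scale (adjusted p = 0.685), and Suclg2, the subunit highest in IP relative to Input, −0.05 (adjusted p = 0.783). In 1 fit over all 12 TRAP-Seq libraries, which includes Input cKO replicate 1, Sdhc stayed called (adjusted p = 0.0433) and Sdhb and Sdhd did not (0.13 and 0.0523).

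Of the 20 entry and exit genes, 4 rose and 3 fell, beside the 20.0% of all genes called. Both subunits of the mitochondrial pyruvate carrier rose, Mpc1 by 1.46-fold and Mpc2 by 1.49-fold, as did the citrate carrier Slc25a1 (1.91-fold) and the dicarboxylate carrier Slc25a10 (1.69-fold). Slc25a1 was at 76.6, 81.6 and 80.2 CPM in Ctrl and 123, 168 and 162 CPM in cKO mice. Pdk4 and Pdk2, kinases that inhibit pyruvate dehydrogenase, fell by 0.56 and 0.36 on the log2 scale, and Slc25a12 fell by 0.38. The calls of Pdk2, Pdk4 and Slc25a12 were lost when 5, 4 and 5 of the 6 libraries, each alone, were left out (highest adjusted p 0.155, 0.162 and 0.116). The calls of Mpc1 and Mpc2 were lost in the fit over all TRAP-Seq libraries (0.0701 and 0.214).

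Of the 6 cytosolic counterparts and paralogs, 1 changed in IP: Me1 rose 1.63-fold (adjusted p = 0.00101), from 102, 112 and 99.9 CPM to 156, 180 and 175 CPM. Of the 8 genes taken for mitochondrial content, Vdac1, the outer membrane channel, rose 1.44-fold (adjusted p = 0.00269). Nrf1, a transcription factor for nuclear genes of mitochondria, fell by 0.49 on the log2 scale (adjusted p = 0.0199), a call lost without Ctrl replicate 1 and without cKO replicate 2, each alone (highest adjusted p 0.0983). The summed level of these 8 genes was 1425 to 1462 CPM in cKO IP and 1162 to 1218 CPM in Ctrl IP, without overlap. A sum weighs abundant genes most. The median log2 fold change of the 8 was 0.0006, beside −0.01 over all genes, and 4 of the 8 were above 0. In IP, 3 of 9 astrocyte markers were called, 1 higher and 2 lower in cKO mice, with summed levels of 12180 to 16739 CPM in cKO and 12527 to 16493 CPM in Ctrl mice. Of the 9 neuron markers, 2 were called, both lower in cKO mice, with summed levels of 2436 to 2484 CPM in cKO and 2404 to 2870 CPM in Ctrl mice. These counts, too, stand beside the 20.0% of all genes. The part of the markers or of mitochondrial content in the differences of the members, Sdhb, Sdhc, Sdhd, Mpc1 and Mpc2 was not tested.

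**Figure D5:**
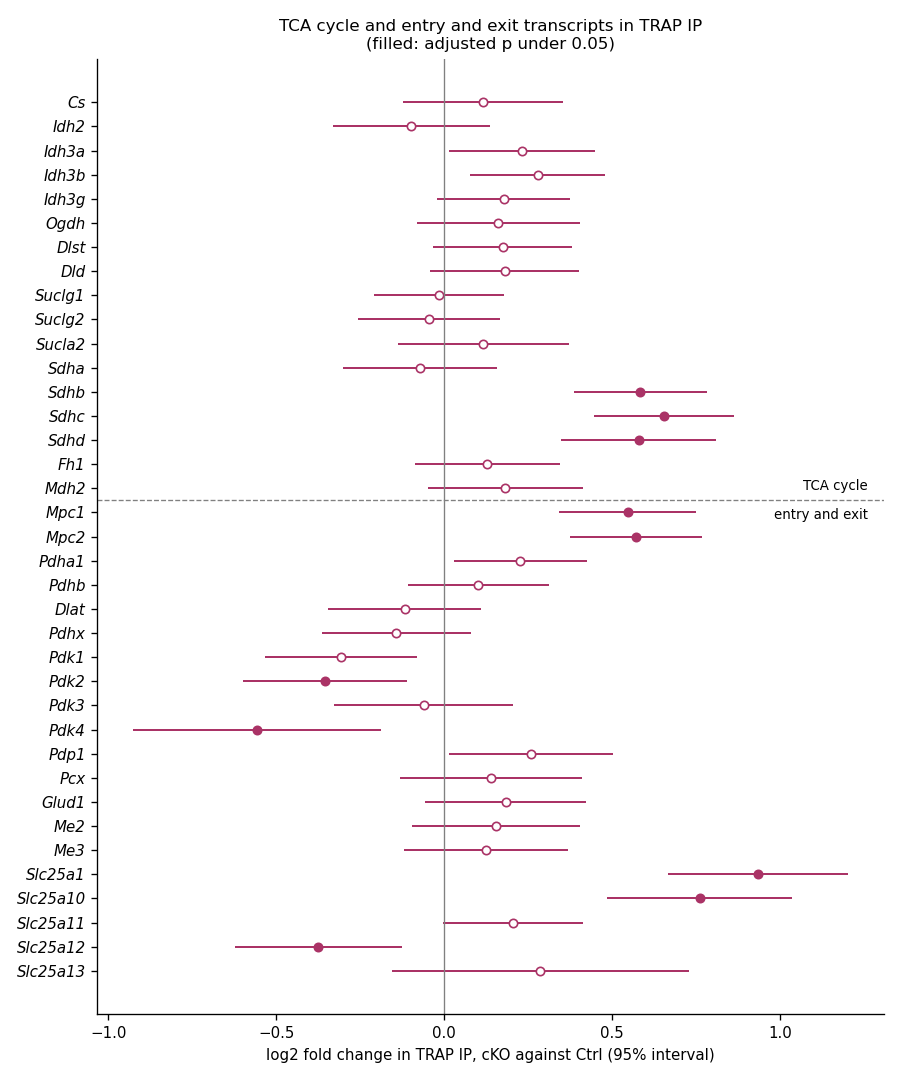
Log2 fold change of cKO against Ctrl in TRAP IP (horizontal axis, 3 against 3 mice) with 95% intervals for 17 TCA cycle genes and 20 genes of entry and exit (vertical axis); filled points have an adjusted p under 0.05. Sdhb, Sdhc and Sdhd (0.58, 0.65 and 0.58) are the filled points among the cycle's genes, and Slc25a1 (0.94) is farthest right.

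Across the 8 groups of libraries, each group's mean log2 CPM was centred within its table, and patterns were compared by their root-mean-square difference. Sucla2 and Fh1 were nearest to each other (0.038), followed closely by Idh3a with Fh1 (0.048), Idh3b with Idh3a (0.050) and Mdh2 with Idh3b (0.052). Idh2 was far from every member, with Cs the nearest at 0.702 and Ogdh the farthest at 1.47. Of 13279 other genes, all with a mean log2 CPM no lower than 3, the 3 whose patterns were most like that of Idh2 were Hepacam (0.061), which encodes an adhesion protein of glia, Oaf (0.070) and Mcur1 (0.085), which encodes a regulator of mitochondrial calcium uptake. Hepacam, for example, was at 71.5 ± 2.35 CPM (SD, n = 4) in P24 Ctrl cortex, 97.6 ± 6.63 in P24 cKO cortex, 47.7 ± 0.67 (n = 3) in Ctrl Input and 392 ± 10.7 in Ctrl IP. The largest difference within the Idh2 pattern was that between IP and Input. In cKO IP, the means of Idh2 (172 CPM against 186 in Ctrl IP), Hepacam (344 against 392) and Oaf (38.9 against 44.3) were lower, while that of Mcur1 was higher (126 against 112). These likenesses describe 8 group means and carry no test. The cKO Input means include replicate 1, in which Sucla2 (181 CPM against 113 and 129), Fh1 (120 against 73.2 and 76.7) and Idh3b (298 against 209 and 207) were high. The likeness was not computed without that library.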

How the data were processed

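RNA was measured in 16 bulk RNA-Seq and 12 TRAP-Seq libraries of mouse cortex. For bulk RNA the authors primed cDNA with oligo-dT, and for TRAP-Seq they purified RNA on oligo-dT beads. They mapped the reads with STAR in Galaxy to mm10 and deposited raw counts of Ensembl genes, with 1 table for each experiment; the counting tool, strand setting and annotation are not given in the sources used here. Without strand, reads of overlapping genes on opposite strands cannot be told apart. Symbols, positions and exon lengths came from GENCODE mouse release M21 (GRCm38), and 53237 of 53342 identifiers had a symbol. The P24 table held 1 truncated identifier, which names no gene and was dropped. Columns of the bulk tables were matched to libraries by title and by the age in the table's name. The targeted gene and 1 gene of a list are not reported here.

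Counts were fitted in R 4.3.3 with edgeR 4.0.16 (filterByExpr at its defaults, including a minimum count of 10, TMM factors, two-sided quasi-likelihood test) across all genes of a comparison, with Benjamini–Hochberg adjustment over all genes tested; genes under an adjusted p of 0.05 were called. Only the groups compared entered a fit, and the interactions used all libraries of their kind. The main fits held no term for mouse or replicate number, so IP and Input of a mouse were treated as unpaired. The standard error was the log2 fold change divided by the square root of the F statistic. Normalised CPM used TMM factors of the whole table, and 0.5 CPM was added before log2 in the likeness of patterns. Replicates came from separate mice and differed by more than counting error (chi-square over degrees of freedom 2.59 to 78.6 in 36 pairs). Input and IP libraries of a number came from the same mouse by their labels; over genes, same-numbered libraries' deviations from their group means correlated at 0.067 to 0.104 in Ctrl and −0.14 to 0.161 in cKO mice. In the P17 table, every same-numbered pair of Ctrl and cKO mice correlated above 0.1 (0.179 to 0.42), so the fit blocked on these numbers is given for Idh2 at P17. No label pairs Ctrl with cKO mice, at P17 or in the other tables.

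The members and the gene lists were chosen with earlier results of these data known. The genes named were all members, the called members of 4 lists, and the 3 genes most like Idh2; in IP against Input examples were named by largest change and by shared complex, and Sdha and the astrocyte markers by name were singled out after they were seen. Alternatives were RLE factors, library size alone, DESeq2 1.42.0, edgeR's likelihood ratio test, no filter beyond 1 count, the replicate block, all TRAP-Seq libraries in 1 fit, leaving out each library or mouse, and the longest transcript for levels per kb. The fits were tested on simulated data with known changes.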

Additional observations from a re-analysis of the deposited data

Results flagged for a closer look

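Of 36 groups of 4 bulk libraries (9 members in 4 groups), 2 held a library far from the other 3 by Dixon's criterion, which flags about 1 in 20 groups by chance. Ogdh was at 244 CPM in P24 cKO replicate 3, while the other 3 cKO mice lay between 255 and 256 CPM. Fh1 was at 54.8 CPM in P17 cKO replicate 2, while the other 3 lay at or below 50.5 CPM. Neither member was called in these comparisons. Groups of 3 TRAP-Seq libraries were not examined in this way.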

How the results depend on the processing

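The rise of Idh2 at P24 kept its call in all 14 alternatives (log2 fold change 0.39 to 0.45), and Idh2 and Cs higher and Ogdh lower in IP than in Input kept theirs in all 10 alternatives in each genotype. The number of members called at P17 was 0, and 1 (Idh2) with DESeq2, the likelihood ratio test, no filter and the replicate block. In IP of cKO against Ctrl it was 0, and 1 (Idh3b) with DESeq2. With the replicate block it was 2 (Idh3a and Idh3b), where same-numbered mice correlated at 0.079 to 0.204 without a label that pairs them. In Ctrl IP against Input it was 5, 4 with library size alone or no filter (without Idh3b), 3 in 1 fit over all TRAP-Seq libraries, and 3 to 6 without single mice. For the fraction by genotype interaction it was 0, and 1 (Idh2) with DESeq2. The replicate block changed no other call of a member; at P24 same-numbered mice correlated at 0.037 to 0.247. Library size alone moved the median of all genes to −0.13 in IP of cKO against Ctrl and to −0.10 in the fraction interaction.

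Directions turned for members that were not called, among them Fh1 in Input of cKO against Ctrl, at 0.25 with all libraries. With library size alone these were Idh3b at P24 (0.0019), Fh1 in Ctrl IP against Input (0.048), Idh3g in the fraction interaction (−0.0097) and Cs in the age interaction (0.0043); with no filter, Fh1 in Ctrl IP against Input (0.036) and Cs in the age interaction (0.00037). Leaving out single libraries, the log2 fold change ranged from −0.043 to 0.013 for Idh3b and −0.014 to 0.047 for Idh3g at P24, and from −0.017 to 0.10 for Idh3g at P17. In Input of cKO against Ctrl it ranged from −0.094 to 0.081 (Cs), −0.015 to 0.38 (Fh1), −0.048 to 0.24 (Idh3b), −0.0067 to 0.20 (Idh3g) and −0.070 to 0.14 (Mdh2). For IP against Input and the fraction interaction, both libraries of a mouse were left out together. In IP against Input of cKO mice the log2 fold change ranged from −0.25 to 0.087 (Fh1), −0.013 to 0.10 (Idh3a), −0.16 to 0.051 (Idh3b) and −0.16 to 0.053 (Sucla2). In that of Ctrl mice it ranged from −0.083 to 0.043 (Fh1) and −0.20 to 0.018 (Idh3a). In the fraction interaction it ranged from −0.24 to 0.11 (Fh1), −0.039 to 0.17 (Idh3g) and −0.058 to 0.28 (Mdh2). In the age interaction, with single libraries left out, it ranged from −0.042 to 0.014 (Cs), −0.077 to 0.010 (Fh1), −0.089 to 0.035 (Idh2) and −0.10 to 0.025 (Idh3g). The cause was not tested. Over all genes, leaving out P24 cKO replicate 1 raised the called genes at P24 from 388 to 952. It also took the age interaction from 11 to 149. Leaving out Input cKO replicate 1 raised the called genes in Input from 26 to 112. The fraction interaction went from 15 to 340 without the mouse of that library, whose Input and IP were left out together.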
